A study of Mus musculus with 14 samples.

Results

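Keratins and ductal epithelial genes were followed in RNA of sorted mouse islet cells: Krt7, Krt8, Krt18, Krt19, Epcam, Muc1, Sox9, Spp1 and Anxa3. These 9 genes were picked by symbol, and all 9 were found among the 52459 genes of the count table. Islets of male mice of the strain C57BL/6J, 7 months of age, had been dispersed and their cells parted by flow cytometry on acidic beta-galactosidase activity, an enzyme activity used as a sign of cellular senescence. Sorted cells with this activity gave 7 libraries, called positive here, and cells without it gave 7 libraries, called negative. Both sets carry the numbers 1 to 7, and the labels name no treatment or allele. The labels do not say how many mice stand behind a library. The comparison asks which transcripts set apart islet cells with this enzyme activity from those without it.

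Keratins are the intermediate filament proteins of epithelial cells. A filament needs a type I chain (Krt18, Krt19) and a type II chain (Krt7, Krt8) in pairs, and Krt8 with Krt18 is the pair of simple, single-layered epithelia. In the adult pancreas Krt19 and Krt7 are widely used as markers of the duct, the tube system that drains the enzyme-making acini. Sox9 is the transcription factor of duct and progenitor cells, Muc1 a mucin of the luminal membrane, Epcam an epithelial adhesion protein, Spp1 the secreted matrix protein osteopontin, and Anxa3 a calcium-dependent membrane-binding annexin.

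Krt7, Krt8 and Krt18 lie on chromosome 15, and their promoters are shown because these 3 abundant keratin genes share it. Krt7 and Krt8 have 566384 bases between them, and Krt8 and Krt18 have 23697. Each stretch holds 250 bases before and 50 after a start of the gene in RefSeq on GRCm38.p6, on the gene's strand. All 3 starts lie inside the gene coordinates given below, and the Krt7 stretch does so as a whole. Of the 9 genes, 6 had such an entry. Capitals mark, on either strand, the TATA box TATAAA, the GC box GGGCGG or the site TGANTCA.
Krt7 (chr15:101412153-101412452, plus strand): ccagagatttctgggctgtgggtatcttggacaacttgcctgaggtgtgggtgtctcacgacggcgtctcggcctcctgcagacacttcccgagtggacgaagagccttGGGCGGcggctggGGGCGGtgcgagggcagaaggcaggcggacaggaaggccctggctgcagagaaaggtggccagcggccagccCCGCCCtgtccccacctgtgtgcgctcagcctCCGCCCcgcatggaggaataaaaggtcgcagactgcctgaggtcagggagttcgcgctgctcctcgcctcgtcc
Krt8 (chr15:102004293-102004592, minus strand): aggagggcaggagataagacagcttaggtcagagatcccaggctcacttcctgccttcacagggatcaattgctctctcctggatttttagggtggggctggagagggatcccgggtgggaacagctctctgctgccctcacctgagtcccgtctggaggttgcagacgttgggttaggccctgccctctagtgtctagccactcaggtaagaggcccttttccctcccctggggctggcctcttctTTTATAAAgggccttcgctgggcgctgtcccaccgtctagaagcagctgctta
Krt18 (chr15:102027966-102028265, plus strand): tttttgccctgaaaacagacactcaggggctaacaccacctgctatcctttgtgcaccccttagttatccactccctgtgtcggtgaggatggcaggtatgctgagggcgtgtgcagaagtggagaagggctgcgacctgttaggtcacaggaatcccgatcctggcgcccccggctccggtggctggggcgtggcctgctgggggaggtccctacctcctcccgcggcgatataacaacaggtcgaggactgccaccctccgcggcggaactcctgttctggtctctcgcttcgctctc
The Krt7 stretch held GGGCGG at 4 places, and 35.9% of 32544 promoters of this length held it. The Krt8 stretch held TATAAA in 2 overlapping matches, 1 on each strand, against 13.6% of promoters with any. These matches began at −3 and −1 from the start used here and so lay across it. TGANTCA, found in 7.79% of promoters, was in none of the 3, and the Krt18 stretch held none of the 3 motifs; a match or its lack is a description of these letters only.

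Total counts were 15585779 to 24577025 reads in positive libraries and 11060144 to 23045934 in negative libraries. Levels are given as CPM, reads scaled to a common library size with TMM factors. The 15 islet endocrine markers listed, insulin and glucagon among them, summed to 132240 to 155200 CPM in positive and 140990 to 191680 CPM in negative libraries, so the labelled tissue was seen in both groups. Of these 15 markers, 2 were called higher in positive libraries and 1 lower by edgeR. Over the 15 the log2 fold change ran from −0.83 to 2.58. With the replicate number as a block 2 were higher and 6 lower, where 11.8% and 7.77% of all genes were. Markers of other cells also differed between the groups. Of 16 endothelial markers tested all 16 were higher in positive libraries, with a summed level of 413 to 1387 CPM in positive and 4.52 to 74.0 CPM in negative libraries. Of 15 macrophage markers tested all 15 were higher (14 with the replicate number as a block), at 86.5 to 770 CPM in positive and 18.0 to 26.0 CPM in negative libraries. Acinar markers were the other way round, with 4 of 16 lower (14 with the block), at 65.6 to 1052 CPM in positive and 223 to 1716 CPM in negative libraries. Without the 4 libraries numbered 6 and 7 none of the 16 acinar markers was called by edgeR (6 at an unadjusted p below 0.05), while their median log2 fold change was −1.63, against −1.71 with all libraries. Over all genes 3.55% were called in that smaller fit, against 8.03% with all libraries. In the smaller fit 2084 of 16345 genes had an unadjusted p below 0.05 by edgeR.

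The 9 genes fell into an abundant and a scarce set. Per kilobase of annotated exon, Krt18 as counted had the highest mean level in both groups, 414 ± 51.4 CPM per kilobase in positive and 379 ± 75.2 in negative libraries (SD, n = 7 each). Krt8 followed with 342 ± 56.0 and 311 ± 72.7, then Spp1 with 298 ± 106 in positive and 171 ± 80.3 in negative libraries. Epcam had 137 ± 12.6 and 125 ± 24.3, and Krt7 69.2 ± 5.00 and 77.0 ± 3.48 CPM per kilobase in positive and negative libraries. As counted, Krt18 lay above Krt8 in all 14 libraries, although the ranges of these neighbours overlapped, and those of Krt8 and Spp1 overlapped too. The order of Krt18 and Krt8 turned in all 14 libraries when reads counted to a pseudogene copy of Krt8, Krt8-ps, were added to Krt8, which then had 577 ± 88.1 CPM per kilobase in positive and 512 ± 115 in negative libraries (SD, n = 7 each). By this length the ranges of Spp1, Epcam and Krt7 were apart in positive libraries, whereas in negative libraries each overlapped with the next. The gap between Epcam and Krt7 depended on the length used. Per kilobase of the longest transcript, positive libraries had 125 to 166 CPM of Epcam and 103 to 129 CPM of Krt7, which overlap. The means in negative libraries were then 135 for Epcam and 133 for Krt7.

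The remaining genes were far lower. Anxa3 had 1.90 ± 0.895 CPM per kilobase in positive and 0.146 ± 0.0713 in negative libraries, Krt19 1.69 ± 1.10 and 1.02 ± 0.361, and Muc1 1.05 ± 0.302 and 1.12 ± 0.322. Sox9 was the lowest, at 0.172 ± 0.108 CPM per kilobase in positive and 0.0868 ± 0.0718 in negative libraries. The ranges of Krt19, Muc1 and Anxa3 overlapped in positive libraries. In negative libraries Krt19 and Muc1 overlapped, and Krt19 lay above Anxa3 in all 7. The chloride channel Cftr, another defining gene of duct cells, had 20 reads over the positive and 5 over the negative libraries. The label of ductal genes is thus met in part by the data: the defining duct genes Krt19, Sox9 and Cftr were low, and the keratins Krt7, Krt8 and Krt18, Epcam and Spp1 were abundant.

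**Figure D1:**
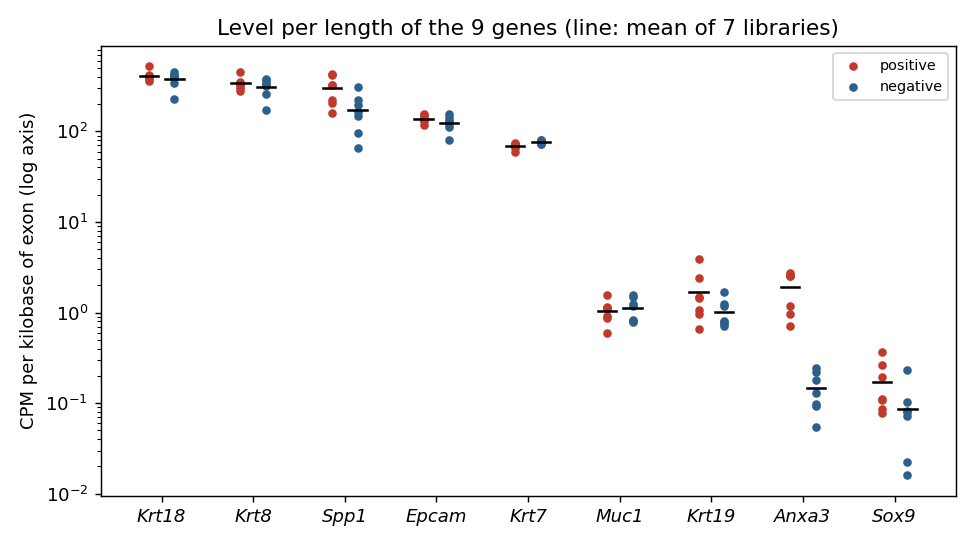
Level of the 9 genes per kilobase of annotated exon (log axis), 1 point per library, positive to the left of negative, with a line at the mean of 7 libraries. Krt18, Krt8, Spp1, Epcam and Krt7 had group means of 69.2 CPM per kilobase or more, and the other 4 genes of 1.90 or less.

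Among the type II keratins, Krt7 (ENSMUSG00000023039, chromosome 15, 101411043 to 101430313, GRCm38) varied least among the members, with a coefficient of variation of 7.22% in positive and 4.51% in negative libraries. It had 421 CPM at the lowest, 493 at the median and 527 at the highest in positive libraries, against 507, 553 and 572 CPM in negative libraries. The groups overlapped, with 4 positive libraries below every negative one. In all 7 pairs of equal number the positive library had less Krt7, a pattern that 6.93% of the 16350 genes tested showed. The log2 fold change, positive over negative, was −0.15 ± 0.06 (SE; 95% interval −0.28 to −0.03), with an adjusted p of 0.134 by edgeR's quasi-likelihood test, and 0.0658 with the replicate number as a block. DESeq2 called it lower (adjusted p = 0.0384). An antisense gene overlaps Krt7 in the annotation, and as the strand setting of the counting was not given, its reads cannot be told apart from those of Krt7.

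Krt8 (ENSMUSG00000049382, chromosome 15, 101996698 to 102004482) had 551, 648 and 896 CPM as lowest, median and highest value in positive libraries, against 339, 657 and 746 CPM in negative libraries. The medians were close and the groups overlapped. Positive 2 stood above all other libraries at 896 CPM, and negative 1 below all at 339 CPM. Its log2 fold change was 0.13 ± 0.15 (SE; 95% interval −0.19 to 0.45; adjusted p = 0.666 by edgeR's quasi-likelihood test), and in 3 of 7 pairs the positive library had more Krt8.

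Reads of Krt8 are uncertain because a processed pseudogene, Krt8-ps (chromosome 7, 23357125 to 23358069), has 26.9% of the 50-base stretches of the Krt8 transcript. Krt8-ps itself was counted at 461 ± 68.8 CPM in positive and 393 ± 88.1 CPM in negative libraries (SD, n = 7 each). Krt8 and Krt8-ps summed gave 1130 ± 172 CPM in positive and 1002 ± 225 CPM in negative libraries. The log2 fold change of this sum was 0.17 ± 0.15 (SE; adjusted p = 0.552 by edgeR), a fit added after the data were seen. Krt8 was called neither alone nor summed. A noncoding gene on the other strand, Gm36026, also overlaps Krt8 in the annotation, and the strand limit given for Krt7 holds here too.

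Among the type I keratins, Krt18 (ENSMUSG00000023043, chromosome 15, 102028180 to 102032027), with 23697 bases between it and Krt8, followed the same pattern. It had 522, 584 and 751 CPM as lowest, median and highest value in positive libraries, against 327, 586 and 647 CPM in negative libraries. Positive 2 was again the highest and negative 1 the lowest. On the log2 scale the difference was 0.13 ± 0.13 (SE; 95% interval −0.14 to 0.39; adjusted p = 0.614 by edgeR).

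Krt19 (ENSMUSG00000020911, chromosome 11, 100140810 to 100148665), the type I keratin of ducts, was scarce, with 433 reads over the 7 positive and 221 over the 7 negative libraries. It had 1.21, 2.66 and 7.15 CPM as lowest, median and highest value in positive libraries, against 1.32, 1.50 and 3.10 CPM in negative libraries. Only positive 1 and 2, at 7.15 and 4.46 CPM, lay above every negative library, and positive 7 lay below all of them. Its log2 fold change was 0.74 ± 0.35 (SE; 95% interval 0.00 to 1.48; adjusted p = 0.236 by edgeR), and it was 0.39 at the least when single libraries were left out. Positive 1, with the most Krt19, also had the highest sum of acinar markers among positive libraries, 1052 CPM against 65.6 to 315 CPM in the other 6; the part of this in the result was not tested.

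**Figure D2:**
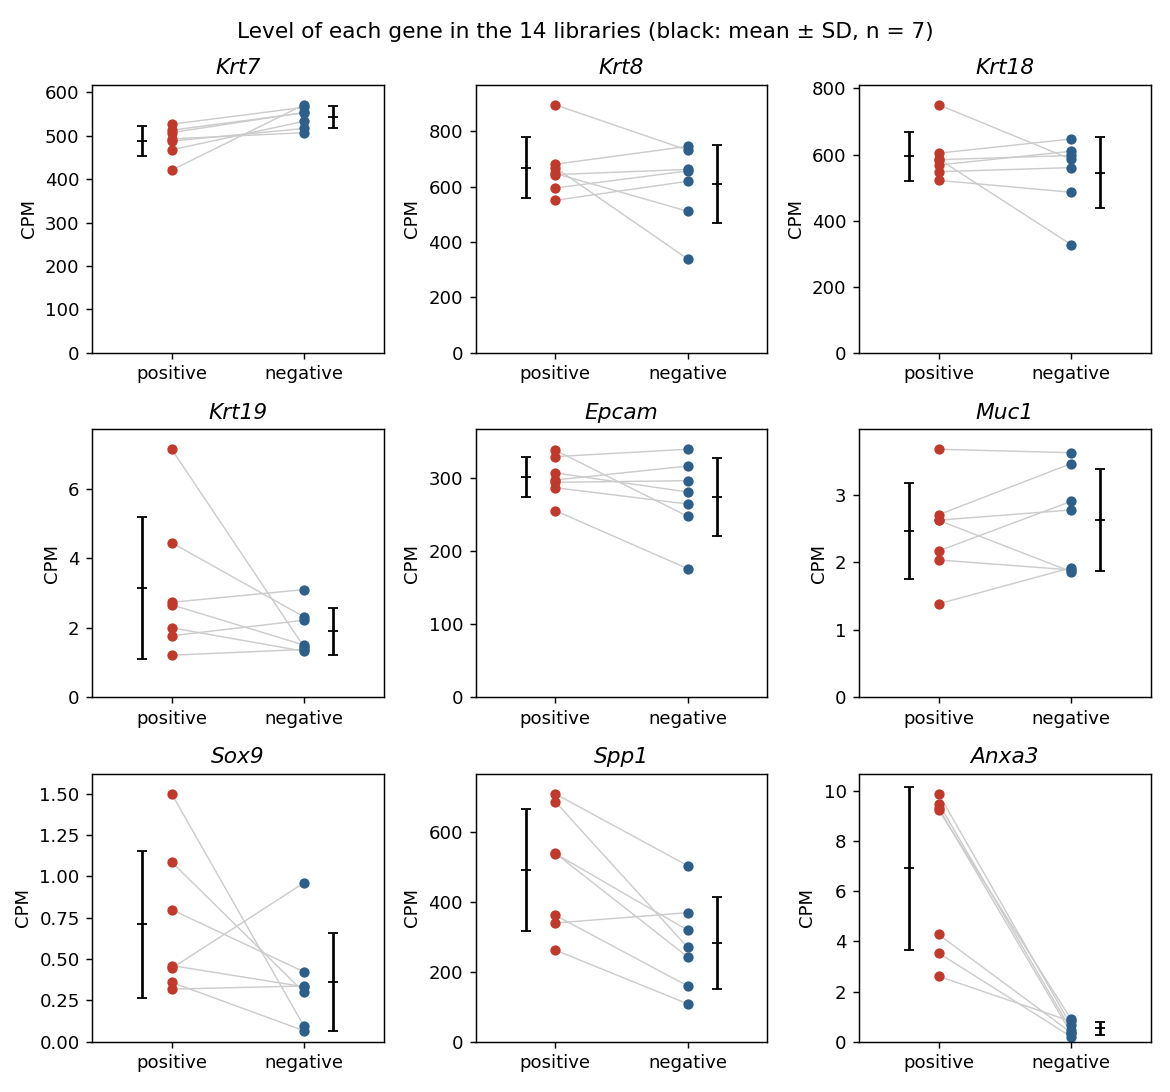
CPM of each gene in every library, positive on the left and negative on the right, with grey lines joining equal replicate numbers and black bars for mean ± SD (n = 7). Anxa3 is apart between the groups, Krt7 lies lower on the positive side of all 7 pairs, and the other genes overlap.

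Epcam (ENSMUSG00000045394, chromosome 17, 87635979 to 87651129) had 256, 297 and 338 CPM as lowest, median and highest value in positive libraries, against 176, 281 and 340 CPM in negative libraries. The groups overlapped, and negative 1 was again the lowest library. Its log2 fold change was 0.13 ± 0.11 (SE; 95% interval −0.11 to 0.38; adjusted p = 0.553 by edgeR). Without negative 1, the log2 fold changes were 0.02 for Krt8, 0.02 for Krt18 and 0.04 for Epcam. Muc1 (ENSMUSG00000042784, chromosome 3, 89229057 to 89233381) had 1.39, 2.62 and 3.68 CPM in positive libraries, against 1.86, 2.78 and 3.63 CPM in negative libraries. Its log2 fold change was −0.11 ± 0.22 (SE; 95% interval −0.56 to 0.35; adjusted p = 0.829 by edgeR).

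Sox9 (ENSMUSG00000000567, chromosome 11, 112782224 to 112787760) did not pass the filter on low counts and was not tested. It had 98 reads over the positive and 45 over the negative libraries, at 0.318 to 1.50 CPM in positive and 0.0662 to 0.962 CPM in negative libraries. The groups overlapped, with the highest values in positive 2 and 1 and, among negative libraries, in negative 3. Without the filter its log2 fold change was 0.92 (unadjusted p = 0.0498, adjusted p = 0.326 by edgeR). A difference was not detected, with 5 to 32 reads in a positive and 1 to 16 in a negative library.

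Spp1 (ENSMUSG00000029304, chromosome 5, 104435118 to 104441050), which encodes osteopontin, had 262, 538 and 710 CPM as lowest, median and highest value in positive libraries, against 109, 270 and 504 CPM in negative libraries. In 6 of 7 pairs the positive library had more, and 4 positive libraries lay above every negative one. The log2 fold change was 0.80 ± 0.32 (SE; 95% interval 0.12 to 1.48), not called over all genes (adjusted p = 0.159 by edgeR). With the replicate number as a block it was called higher, at 0.87 ± 0.18 (adjusted p = 0.0145). Libraries of equal number shared part of their Spp1 level: positive 1 and negative 1 were the highest of their groups, at 710 and 504 CPM, and positive 4 and negative 4 the lowest, at 262 and 109 CPM. The gene shares 11.6% of its 50-base stretches with an overlapping locus, Gm42793, counted at 0.392 ± 0.151 CPM in positive and 0.219 ± 0.124 CPM in negative libraries. Spp1 is also known from macrophages. Summed macrophage markers were 126 CPM in positive 1, which had the most Spp1. They were 770 and 550 CPM in positive 6 and 7, which had 540 and 687 CPM of Spp1. Over the negative libraries these sums were 18.0 to 26.0 CPM, while Spp1 ran from 109 to 504 CPM. Without the 4 libraries numbered 6 and 7 the log2 fold change of Spp1 was 0.60 (adjusted p = 0.618 by edgeR). The part of macrophages in the result was not tested.

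Anxa3 (ENSMUSG00000029484, chromosome 5, 96793339 to 96845966) rose, and it was the sole member called without the block, while 8.03% of all genes tested were called. It had 2.61, 9.25 and 9.90 CPM as lowest, median and highest value in positive libraries, against 0.199, 0.475 and 0.898 CPM in negative libraries. The groups did not overlap, which held for 3.86% of all genes tested. It averaged 6.92 ± 3.26 CPM in positive and 0.533 ± 0.260 CPM in negative libraries (SD, n = 7 each), and the log2 fold change was 3.70 ± 0.39 (SE; 95% interval 2.88 to 4.52; adjusted p = 5.06e-05 by edgeR's quasi-likelihood test; higher in 7 of 7 pairs). The negative level rests on 63 reads over 7 libraries, against 934 reads over the positive libraries. Leaving out single libraries moved the log2 fold change between 3.55 and 3.87. An overlapping locus, Gm42603, shares 1.79% of the 50-base stretches of Anxa3. It was counted at 0.0247 ± 0.0310 CPM in positive and 0 CPM in negative libraries.

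Anxa3 was not even among positive libraries. Positive 1, 2, 6 and 7 had 9.25 to 9.90 CPM, and positive 3, 4 and 5 had 4.28, 3.54 and 2.61 CPM. Endothelial markers summed to 625 to 1387 CPM in the first 4 of these and to 413 to 531 CPM in the other 3. Negative 6, with the most Anxa3 of its group at 0.898 CPM, had the highest endothelial sum of its group, 74.0 CPM, but negative 5 followed at 0.809 CPM with the lowest, 4.52 CPM. Without the 4 libraries numbered 6 and 7 the log2 fold change was 3.69 (adjusted p = 0.000548 by edgeR), and the endothelial sums in the 10 libraries left were 413 to 1061 CPM in positive and 4.52 to 10.8 CPM in negative libraries. The part of endothelial cells in the result was not tested. In bulk libraries, more cells that express a gene and more RNA of it per cell cannot be told apart.

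In all, 1 of the 8 members tested was called higher and 0 lower, while 4 of 8 had an unadjusted p below 0.05 (Anxa3, Spp1, Krt7 and Krt19). An unadjusted p below 0.05 by edgeR was also found for 3457 of all 16350 genes tested. Over the 16350 genes tested 8.03% were called, 6.4% higher and 1.63% lower, so the count of members called is near the background. With the replicate number as a block, 2 members were called higher, against 19.6% of all genes called in either direction, 11.8% higher and 7.77% lower. The median log2 fold change of the 8 was 0.13, and that of all genes tested was 0.00.

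**Figure D3:**
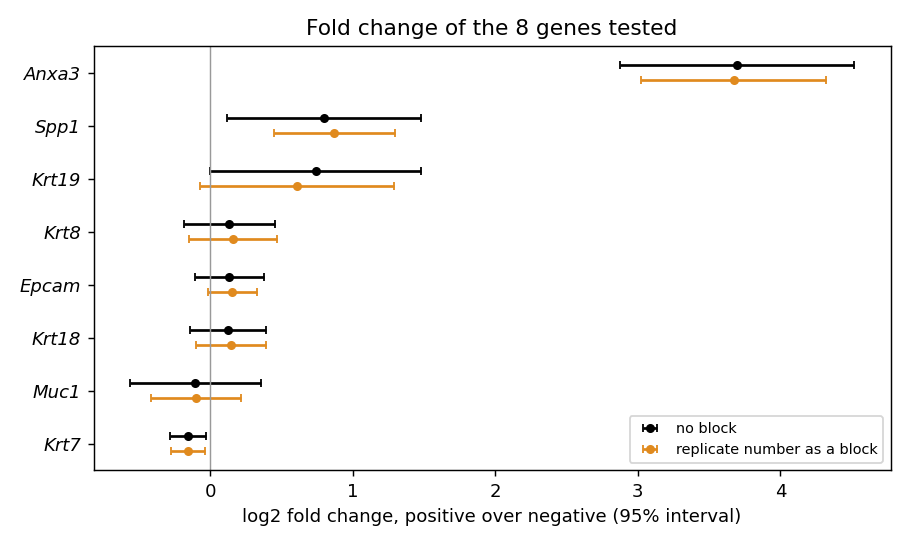
Log2 fold change, positive over negative, of the 8 genes tested, with 95% intervals, from the fits without (black) and with (orange) the replicate number as a block. The interval of Anxa3 runs from 2.88 to 4.52 without the block, that of Spp1 narrows to 0.45 to 1.29 with it, and those of Krt8, Krt18, Epcam and Muc1 include 0 in both fits.

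Within groups, Krt8 and Krt18 varied together. The correlation of their log2 CPM was r = 0.86 (Spearman's rho 0.75; exact permutation p = 0.0373 and 0.0663) over the 7 positive libraries and r = 0.97 (rho 0.75; exact permutation p = 0.00635 and 0.0663) over the 7 negative libraries. Neither passed after adjustment over the 56 correlations computed between members (adjusted p = 0.261 and 0.157, exact permutation test). Leaving out the 2 libraries farthest from the median of Krt8 gave r = 0.57 in positive libraries (without 2 and 3). In negative libraries (without 1 and 6) it gave r = 0.37. This narrows the range of Krt8, which can by itself lower r, so it does not show whether the relation rests on those libraries. The ratio of Krt8 to Krt18 reads was steady, at 1.12 ± 0.0866 in positive and 1.11 ± 0.0846 in negative libraries (SD, n = 7 each). The ratio of Krt7 to Krt8 was less so, at 0.742 ± 0.102 in positive and 0.951 ± 0.316 in negative libraries, with 1.63 in negative 1.

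Krt7 and Krt18 had r = 0.49 (exact permutation p = 0.233, adjusted p = 0.683; rho 0.75, p = 0.0663) over positive libraries, with 0.95 without positive 2 and 7, and r = −0.08 (exact permutation p = 0.872; rho 0.14, p = 0.783) over negative libraries. The highest rho was that of Krt7 and Krt19 over positive libraries, 0.96 (exact permutation p = 0.00278, adjusted p = 0.156), with r = 0.83 (p = 0.0185, adjusted p = 0.157) and 0.80 without positive 2 and 7. Over negative libraries Krt7 and Krt19 had r = 0.30 (exact permutation p = 0.483; rho 0.21, p = 0.662). These levels are relative to library totals that the genes of a library share.

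Krt18 and Epcam had r = 0.60 in positive and 0.92 in negative libraries (exact permutation p = 0.169 and 0.0129; rho 0.64 and 0.82, p = 0.139 and 0.0341; adjusted p of r 0.6 and 0.157), with r of 0.23 and 0.62 when the 2 farthest libraries were left out. Spp1 and Anxa3 had r = 0.87 over positive libraries (exact permutation p = 0.0175, adjusted p = 0.157; rho 0.64, p = 0.139), and 0.87 again without positive 3 and 4. Over negative libraries their r was 0.08 (exact permutation p = 0.857; rho −0.18, p = 0.713), and −0.71 without negative 1 and 4. None of the 56 correlations had an adjusted p below 0.05, and 9 had an unadjusted p of r below 0.05. The difference between the groups' correlations was not tested.

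**Figure D4:**
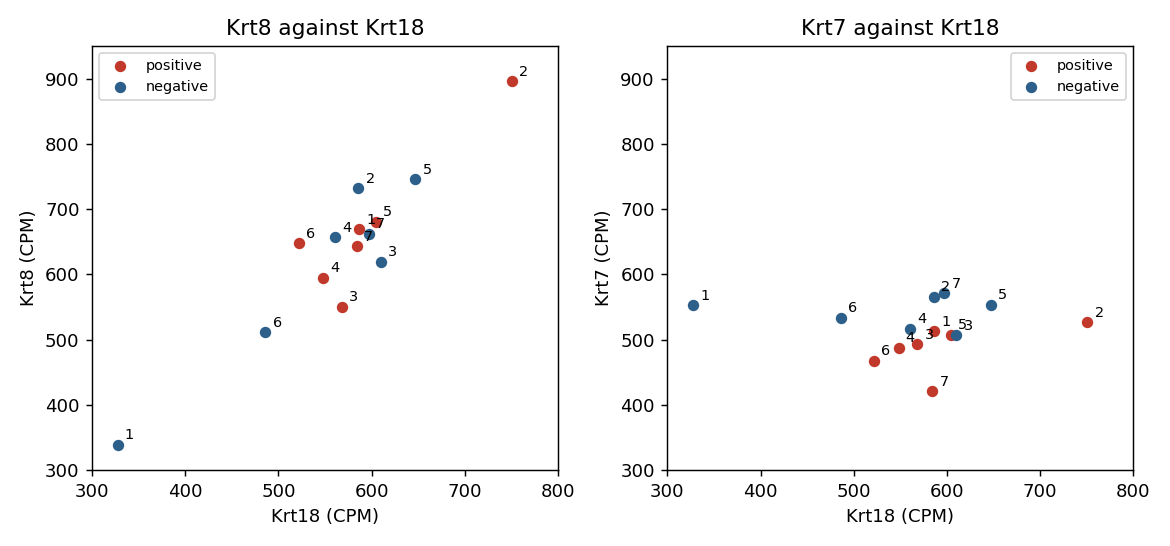
CPM of Krt8 (left) and Krt7 (right) against Krt18, 1 point per library with its replicate number, positive and negative libraries in separate colours and axes starting at 300 CPM. Krt8 follows Krt18 from negative 1 (339 CPM of Krt8) to positive 2 (896 CPM), while Krt7 stays between 421 and 572 CPM.

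Over all 14 libraries, deviations from the group mean of log2 CPM showed which of 10537 genes ran most like each member, as a description in libraries that share depth and cell mix. Krt8 ran closest to Sfn (r = 0.95), Wdr1 (0.95) and Krt18 (0.95), and Krt18 closest to Sfn (0.97), Krt8-ps (0.96) and Wdr1 (0.95). Krt7 ran closest to Stard10 (0.90), Ppp4r1l-ps (0.90) and Ppp1r37 (0.89). Epcam was closest to Csnk1e (0.96), Smad1 (0.95) and Rras2 (0.95), and Muc1 to Bloc1s5 (0.91), Parp11 (0.91) and Unc13a (0.90). Spp1 was closest to Col16a1 (0.95), P4ha2 (0.91) and Ppib (0.91), Anxa3 to Elmo1 (0.95), Gm5456 (0.85) and Tex10 (0.85), and Krt19 to Gm7816 (0.86), Dnajb2 (0.86) and Reg1 (0.85).

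Most further keratin genes were almost silent. Of 50 others in the table, 20 had no read in any library, 5 reached a mean of 1 CPM, and 6 were tested with none called by edgeR (1 at an unadjusted p below 0.05, 0 called with the block). Of all 16350 genes tested, 3457 had an unadjusted p below 0.05 by edgeR. The most abundant were Krt222, with 11.8 ± 2.10 CPM in positive and 11.6 ± 1.71 CPM in negative libraries, and Krt10, with 6.26 ± 0.771 and 6.90 ± 1.16 CPM (SD, n = 7 each). Krt80 gave −0.09 and Krt1 −0.44 on the log2 scale (adjusted p = 0.862 and 0.16 by edgeR). Over all genes tested 8.03% were called, and 19.6% with the block.

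Of 25 other duct markers listed, 16 were tested, 3 rose, 1 fell and 12 were not called (median log2 fold change 0.08), against 6.4% higher and 1.63% lower over all genes. Aqp1, a water channel that endothelial cells also carry, rose to 2.41 ± 0.958 CPM in positive libraries, against 0.973 ± 0.295 CPM in negative libraries (SD, n = 7 each; log2 fold change 1.30, adjusted p = 0.00419 by edgeR). The bicarbonate transporter Slc4a4 and the sodium pump subunit Atp1b1 rose by 0.34 and 0.20 on the log2 scale, and the RNA-binding protein Bicc1 fell by 0.33 (adjusted p = 0.0397, 0.0467 and 0.0286). Slc4a4 stayed called only when the library left out was negative 3, positive 2 or positive 7. Bicc1 lost its call without negative 2, positive 3, positive 6 or positive 7, and Atp1b1 without any one of the 14. Without the 4 libraries numbered 6 and 7, 0 of the 16 were called by edgeR and 4 had an unadjusted p below 0.05, where 3.55% of all genes were called. An unadjusted p below 0.05 was found in that fit for 2084 of 16345 genes. The log2 fold changes were then 0.39 for Slc4a4, 0.26 for Atp1b1, 0.98 for Aqp1 and −0.30 for Bicc1. With the block, 5 rose and 3 fell, where 11.8% of all genes were called higher and 7.77% lower. The tight junction gene Cldn4 was the most abundant, with 1357 ± 358 CPM in positive and 897 ± 283 CPM in negative libraries (a log2 difference of 0.60, adjusted p = 0.155). Clu, the secreted chaperone clusterin, had 242 ± 112 and 150 ± 35.2 CPM in positive and negative libraries (0.69, adjusted p = 0.117; 0.018 with the block).

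Of 21 epithelial junction and splicing genes tested, none was called by edgeR. An unadjusted p below 0.05 by edgeR was seen for 3 of them, against 3457 of all 16350 genes tested. The median log2 fold change of the 21 was 0.06, and 2 of them were called higher with the block. Over all genes tested 8.03% were called, and 19.6% with the block. Cdh1, which encodes E-cadherin, had 574 ± 18.4 CPM in positive and 522 ± 65.0 CPM in negative libraries, and the desmosome gene Dsp 503 ± 88.7 and 432 ± 104 CPM (SD, n = 7 each). Of 9 tested genes from a list of keratin partners and other cytoskeleton genes, 1 rose, Des (2.56), the muscle-type filament of pericytes, and 8 were not called. With the block 3 rose. Des, which is also among the pericyte and fibroblast markers, was not called without the 4 libraries numbered 6 and 7 (2.30, adjusted p = 0.0592 by edgeR). Pericyte and fibroblast markers had 4 of 10 higher, with sums of 45.6 to 249 CPM in positive and 16.1 to 1465 CPM in negative libraries. The value of 1465 CPM was that of negative 3 and the other 6 negative libraries had 16.1 to 72.3 CPM; without negative 3, 6 of 10 were called higher, with a median log2 fold change of 2.35 against 0.97. Of 8 Epcam partners, 1 rose, the tetraspanin Cd9, at 9.25 ± 3.34 CPM in positive and 3.47 ± 0.873 CPM in negative libraries (log2 fold change 1.41, adjusted p = 0.000587 by edgeR). For its partner Cldn7 it was 0.11 (adjusted p = 0.571).

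Of 9 osteopontin receptor genes tested, 4 rose and 5 were not called (median log2 fold change 0.36). With the block 5 of them rose. Over all genes tested 6.4% were called higher, and 11.8% with the block. Those that rose were the integrin chains Itgb3 (2.73), Itga9 (1.50), Itgb6 (1.35) and Itgb1 (0.36). Itgb1 and Itgb6 passed narrowly (adjusted p = 0.049 and 0.0265 by edgeR), and both calls depended on single libraries. Itgb1 stayed called only without negative 3, positive 3, positive 4 or positive 5, and Itgb6 lost its call without negative 4, negative 5, positive 2, positive 6 or positive 7. Without the 4 libraries numbered 6 and 7, 2 of the 9 were called, Itgb3 (2.61) and Itga9 (0.84), while Itgb6 (1.27) and Itgb1 (0.23) were not, where 3.55% of all genes were called. The receptor Cd44 had 49.4 ± 9.20 CPM in positive and 50.3 ± 2.99 CPM in negative libraries (log2 fold change −0.03, adjusted p = 0.918). Endothelial and macrophage sums moved the same way as these integrins, as given above, and their part was not tested.

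Of 10 other annexin family and partner genes tested, 1 rose, Anxa2, at 14.1 ± 7.16 CPM in positive and 3.09 ± 2.49 CPM in negative libraries (SD, n = 7 each; log2 fold change 2.17, adjusted p = 0.00943 by edgeR). Its call was lost without the 4 libraries numbered 6 and 7 (1.88, adjusted p = 0.136 by edgeR). Over all genes tested 3.55% were called in that smaller fit, 8.03% with all libraries and 19.6% with the block. The most abundant annexin, Anxa5, had 527 ± 23.3 and 488 ± 59.9 CPM in positive and negative libraries (log2 fold change 0.11, adjusted p = 0.443). Among 7 membrane mucins tested, Emcn (5.38) and Podxl (4.95), both endothelial sialomucins, rose, 5 were not called, and the block gave 3 higher and 1 lower. Muc4 had 79.9 ± 25.6 CPM in positive and 98.1 ± 17.4 CPM in negative libraries (a log2 difference of −0.29; adjusted p = 0.343, and 0.042 when blocked). Of 9 Sox9 partners and targets tested, the Notch target Hes1 (1.20) and the receptor Fgfr2 (1.10) rose and 7 were not called, and with the block 3 rose and 4 fell. Hes1 had 14.7 ± 3.19 CPM in positive and 6.40 ± 1.37 CPM in negative libraries (adjusted p = 0.000132 by edgeR).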

How the data were processed

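RNA of 7 positive and 7 negative libraries was measured by single-read sequencing of poly(A)-selected RNA with a directional kit, per the labels' protocols and the series' design text. The authors deposited raw read counts per gene. Per the submitters' processing notes, Subread aligned reads to GRCm38 and featureCounts counted them; for versions, annotation and strand setting the sources used here give nothing. Of the table's symbols, 91.5% matched 1 gene of GENCODE M21, used for coordinates and exon lengths. Each column's name stands in 1 library's title.

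edgeR 4.0.16 in R 4.3.3 was run on the whole table: filterByExpr left 16350 genes, with TMM factors, robust dispersions and the quasi-likelihood F-test, and a model of group alone. A call needs an adjusted p (Benjamini-Hochberg) under 0.05, two-sided. SE came from the F statistic. Log2 CPM used a prior count of 2. The test was checked on simulated data. Alternatives were DESeq2 1.42.0, limma 3.58.1 (voom), other scaling and filters, the replicate block and leaving out libraries. Any 2 libraries of a group differed beyond counting noise (chi-square of at least 5.36 per degree of freedom), so all 14 were kept as separate. Labels do not say that they came from separate mice, so p-values measure the spread between libraries.

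Deviations of libraries of equal number correlated at 0.203 to 0.541 in all 7 pairs (median of different numbers −0.125), so the numbers in the titles were taken to pair them. Members and lists were chosen with earlier results of these data known. The members were named, with the 3 genes running most like each (average log2 CPM of at least 3), and from each list those called and up to 4 of highest mean CPM, with Cftr added after values were seen. Some results for items withheld from this text are not reported here.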

Additional observations from a re-analysis of the deposited data

Results flagged for a closer look

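Among the 18 groups of 7 values examined, 3 held a library far from the others of its group; chance gives about 1 in 20. Krt8 and Krt18 were both high in positive 2, at 896 CPM and 751 CPM, while the other 6 positive libraries had 551 to 681 CPM of Krt8 and 522 to 604 CPM of Krt18. Sox9 was high in negative 3, at 0.962 CPM, which is 16 reads, against 1 to 8 reads in the other 6 negative libraries.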

How the results depend on the processing

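The fit on group alone called 1047 genes higher and 266 lower. DESeq2 gave 1602 and 477, and leaving out the 4 libraries numbered 6 and 7 gave 536 and 45. Leaving out 1 library at a time gave 825 to 1267 higher and 140 to 616 lower; the lower count was 616 when negative 3 was dropped, and 160, 140 and 162 when positive 3, positive 6 or positive 7 was. Members called were 1 higher and 0 lower, as in each single-library omission (1 to 1 and 0 to 0), and DESeq2 called 1 lower, with a Krt7 log2 fold change of −0.158. Other duct markers called were 3 higher and 1 lower. They were 1 higher without the filter on low counts, 2 lower in DESeq2, 0 and 0 without libraries 6 and 7, and 1 to 2 higher and 0 to 2 lower when single libraries were left out. The cause of these shifts was not tested.

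The libraries are taken as paired by number. With the replicate block, 1930 genes were called higher and 1270 lower, members were 2 higher, Spp1 (0.870) being added, and other duct markers were 5 higher and 3 lower.

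Some uncalled genes changed sign. Without libraries 6 and 7, Muc1 stood at 0.028, Dst at 0.0698 and Krt80 at 0.111, and Dst was 0.00103 with the block. Single-library omissions moved Anxa7 between −0.00159 and 0.0820, Cd44 between −0.126 and 0.0226, Dst between −0.0928 and 0.0320, Itgav between −0.0121 and 0.157, and Krt222 between −0.0656 and 0.0703. On the CPM scale the correlation of Spp1 and Anxa3 over negative libraries was −0.207. With the longest transcript as length, 2 members changed rank in negative libraries, and with Krt8-ps reads added to Krt8, a choice made after seeing the data, 2 did in either group. Among the values of named genes that are not members, 879 kept direction and side of the threshold, 63 lost a call, 14 gained a call and 11 changed sign. Counts limit Sox9, Krt19, Muc1 and, in negative libraries, Anxa3.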
